A study of Mus musculus with 6 samples.

Results

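The 35 genes described here are mouse genes of homologous recombination, the Fanconi anaemia pathway and the damage checkpoint. They were taken by symbol through the GENCODE M21 annotation of GRCm38. No measured value entered the rule, but the list was chosen with earlier results of these data known. All 35 were found among the 52870 gene rows used, and all 35 were among the 13579 genes tested. Transcript levels had been measured by RNA sequencing in embryonic stem cells of the C57BL/6 strain, the pluripotent cells grown from the early embryo. 3 libraries came from Rbbp4-/- cells, titled Rbbp4KO, and 3 came from Rbbp4F/F cells, which carry the floxed gene and are the control in the series title. The RBBP4 protein binds histones and is a subunit of the chromatin assembly factor CAF-1 and of the NuRD and Polycomb complexes. The labels give neither the deleted exons nor the way the deletion was made, and nothing in them tells if replicates were separate cultures or clones. Values are FPKM, fragments scaled to transcript length and to the library's total, and errors are SD with n = 3 libraries per group.

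Homologous recombination repairs a broken chromosome by copying an intact sister. The break is first resected to single-stranded DNA by the MRE11 complex and its helpers, BRCA1 and BRCA2 with their partners then prepare the single strand for pairing with the sister, and cofactors such as RAD51C, XRCC2 and the RAD54 translocases assist strand exchange. The Fanconi pathway unhooks crosslinks between DNA strands: a core complex places ubiquitin on the pair FANCD2 and FANCI. The kinases ATM and ATR sense breaks and exposed single strands and pass the signal to CHEK2 and CHEK1. Embryonic stem cells divide fast, spend much of their cycle in S phase and depend on this machinery.

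The targeted gene and the libraries were checked first. Rbbp4 had 21.3, 12.7 and 11.1 FPKM in Rbbp4KO replicates 1 to 3, against 58.5, 57.0 and 61.8 FPKM in the Rbbp4F/F libraries, so that 25.45% of the mean level remained. Rbbp4KO replicate 1 was apart from replicates 2 and 3 on principal component 2 (score 36.0, the others −7.0 and −24.2). From the even steps of low values, depth was estimated at 25900000 to 28300000 fragments per library, and 1 fragment on a transcript of 2 kb was then worth 0.0203 to 0.0224 FPKM. A multiple of the true depth gives even steps too, and depths below the range searched were not tried. Of the markers of embryonic stem cells, 5 of 6 fell, and their summed level was 688.4 to 1036 FPKM in Rbbp4KO libraries and 2299 to 2468 FPKM in Rbbp4F/F libraries. Of 7 trophoblast markers 6 rose (102.1 to 188.3 FPKM summed in Rbbp4KO and 31.2 to 42.1 in Rbbp4F/F libraries). Of 5 primitive endoderm markers 3 were tested and 2 rose (7.62 to 8.27 FPKM in Rbbp4KO and 1.99 to 3.61 in Rbbp4F/F libraries), and with no filter 3 of the 5 rose. Of 4 neural markers 3 were tested and 2 fell (25.2 to 31.0 FPKM in Rbbp4KO and 132.6 to 174.2 in Rbbp4F/F libraries). Of 3 blood markers only 1 was tested, and it fell (1.25 to 1.49 FPKM in Rbbp4KO and 2.55 to 3.57 in Rbbp4F/F libraries), with Hbb-bt at 0 in every library. Of 9 fibroblast markers, which would show feeder cells, only Thy1 reached the filter, and it fell. The sum was 10.2 to 11.1 FPKM in Rbbp4KO and 13.0 to 19.3 in Rbbp4F/F libraries, and Lum and Postn were listed at 0 in all Rbbp4F/F libraries. With no filter 3 of the 9 rose and 1 fell. Col3a1, Dcn and Col1a2 were higher in every Rbbp4KO library, at means of 0.40, 0.73 and 0.23 FPKM, against 0.04, 0.21 and 0.11 FPKM in Rbbp4F/F libraries. In the S phase list 15 of 26 genes fell, and in the mitotic list 11 of 20 fell while 1 rose. Of all tested genes 22.5% fell and 36.7% rose. With equal FPKM sums 12 fell and 2 rose in the S phase list, and 8 fell and 3 rose in the mitotic list. At that setting 17.5% of all tested genes fell and 44.7% rose. The part of these shifts in the differences of the repair genes was not tested, and in bulk RNA fewer cells of a type cannot be told apart from less RNA per cell.

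The repair genes moved in both directions, with more of them lower in the knockout libraries. Of the 35, 13 fell, 5 rose and 17 did not pass (limma on log2(FPKM + 1), Benjamini-Hochberg adjusted p under 0.05 over all tested genes). The 18 called make 51.4% of the list, close to the 59.1% of all tested genes that were called. The direction differed from that background: 37.1% of the repair genes were lower, where 22.5% of all tested genes were, and 14.3% were higher, where 36.7% were. The median log2 difference, Rbbp4KO minus Rbbp4F/F, was −0.16 over the 35 genes and 0.17 over all tested genes. Members minus all tested genes, the gap was −0.33. A scaling moves both medians alike, but other settings moved the gap, to −0.20 with no filter on low values, to −0.50 with a filter of 5 FPKM and to between −0.37 and −0.26 with 1 library left out. The number called did depend on the setting. With any 1 library other than Rbbp4KO replicate 1 left out, 3 rose, where 29.9% to 33.3% of all tested genes did. With median-ratio scaling 16 repair genes were lower and 3 higher, where 29.5% and 28.4% of all tested genes were (57.8% together). With upper-quartile scaling the members' counts were again 16 and 3, where 28.6% and 29.5% of all tested genes were (58.0% together). With equal FPKM sums 11 were lower and 8 higher, where 17.5% and 44.7% were (62.2% together). The summed level of the 35 genes was 407.9 to 416.9 FPKM in Rbbp4KO libraries and 487.7 to 531.0 FPKM in Rbbp4F/F libraries, with no overlap.

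**Figure D1:**
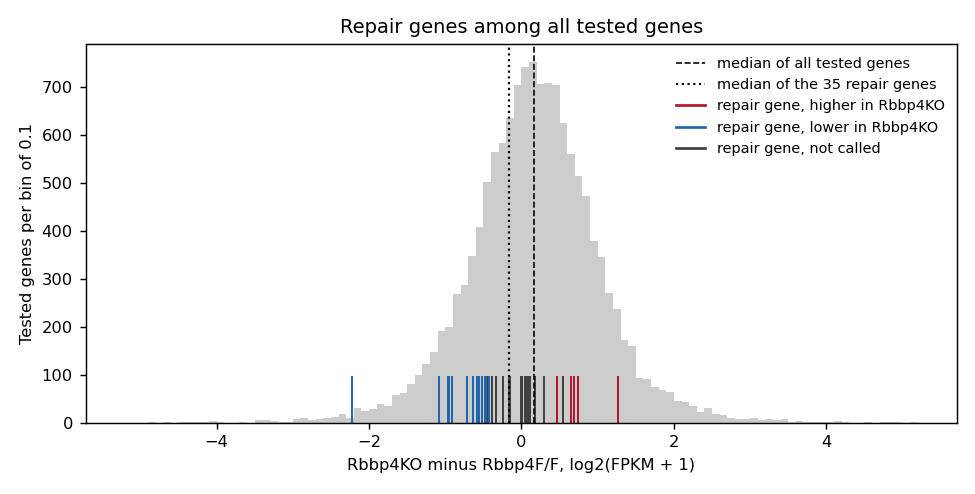
Histogram of the log2 difference, Rbbp4KO minus Rbbp4F/F, of the 13579 tested genes in bins of 0.1, with the 35 repair genes as short lines coloured by their call. The repair genes lie within the body of the distribution except Chek2 at −2.22, and their median (dotted, −0.16) is left of that of all tested genes (dashed, 0.17).

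In 14 of the 35 genes every Rbbp4KO library lay below every Rbbp4F/F library, and in 5 every one lay above, which is 40% and 14.3% of the list, against 25.5% and 41.3% of all tested genes (66.8% together). 14 genes were called, did not overlap between groups and were at least 1.5-fold apart in mean FPKM. Of these, 9 were lower (25.7% of the list, against 15.9% of all tested genes) and 5 higher (14.3%, against 29.3%). Fold differences in mean ran from 1.36 to 5.24 among the 13 genes that fell and from 1.62 to 2.52 among the 5 that rose. Every repair gene was expressed, with means over all libraries from 2.30 FPKM for Fancb to 29.7 FPKM for Topbp1 and a lowest single value of 1.64 FPKM. The list spans 14 chromosomes, with 6 genes each on chromosomes 9 and 11 and 4 on chromosome 4.

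**Figure D2:**
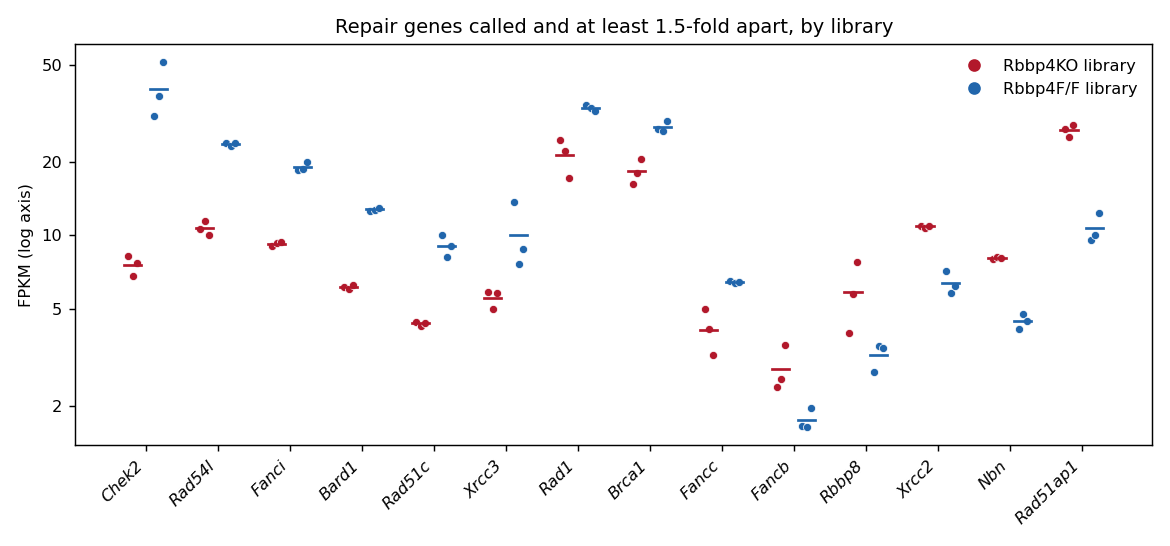
FPKM (log axis) of the 14 repair genes called, not overlapping and at least 1.5-fold apart, with Rbbp4KO libraries at the left (red) and Rbbp4F/F libraries at the right (blue) of each gene. Points are libraries and bars are means; Chek2 shows the widest gap and Rad51ap1 the widest in the upward direction.

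Promoters are shown for 4 of these 14 genes, those with the largest difference whose promoter holds a match to a searched motif, so that the sequence of genes that fell and of one that rose can be read side by side. Fanci, with a larger log2 difference than Bard1 (−0.97 against −0.95), held no match and is not shown. The sequences are the 250 bases before the gene start from RefSeq on GRCm38.p6, 5′ to 3′ in the direction of transcription, for Chek2 (chr5:110839733-110839982, plus strand), Rad51ap1 (chr6:126939588-126939837, minus strand), Rad54l (chr4:116123691-116123940, minus strand) and Bard1 (chr1:71102973-71103222, minus strand). Capitals mark matches on either strand to E2F-like letters (TTCCCGC, or else TTGGCGC, or else TTCGCGC, or else TTGCCGC), to the cell cycle homology region (TTTGAA) or to the box read by NF-Y (CCAAT).
Chek2: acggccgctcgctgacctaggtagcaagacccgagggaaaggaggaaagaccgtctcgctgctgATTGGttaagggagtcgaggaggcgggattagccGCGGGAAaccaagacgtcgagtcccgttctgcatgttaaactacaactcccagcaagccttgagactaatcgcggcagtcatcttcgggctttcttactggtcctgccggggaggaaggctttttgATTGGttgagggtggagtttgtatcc
Rad51ap1: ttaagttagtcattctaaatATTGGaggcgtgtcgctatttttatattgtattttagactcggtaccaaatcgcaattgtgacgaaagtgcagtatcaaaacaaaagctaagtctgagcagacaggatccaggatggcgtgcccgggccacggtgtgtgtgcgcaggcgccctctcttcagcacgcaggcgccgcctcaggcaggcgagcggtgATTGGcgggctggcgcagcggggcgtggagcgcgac
Rad54l: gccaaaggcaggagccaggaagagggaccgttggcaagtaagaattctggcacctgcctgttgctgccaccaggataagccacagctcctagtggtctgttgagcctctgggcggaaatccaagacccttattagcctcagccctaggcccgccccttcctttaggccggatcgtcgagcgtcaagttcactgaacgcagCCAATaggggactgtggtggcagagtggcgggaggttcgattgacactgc
Bard1: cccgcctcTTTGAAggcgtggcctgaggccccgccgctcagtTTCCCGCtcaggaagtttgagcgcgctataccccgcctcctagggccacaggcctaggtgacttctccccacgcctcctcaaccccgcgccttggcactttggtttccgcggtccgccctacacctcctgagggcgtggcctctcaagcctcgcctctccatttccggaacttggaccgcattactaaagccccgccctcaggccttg
The Chek2 window holds an E2F-like match 146 to 152 bases before the start and 2 CCAAT boxes. The Rad51ap1 window holds 2 such boxes and none of the E2F-like letters listed, and other forms of the E2F site were not searched. The Rad54l window holds a CCAAT box, and the Bard1 window an E2F-like match and a TTTGAA.

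Of the 27 repair genes with a promoter in the table, 9 (33.3%) had an E2F-like match, against 9.01% of the 27025 genes in the table. A CCAAT match was present in 15 (55.6%, against 37.5%), and TTTGAA in 1 (3.7%, against 18.3%). No E2F-like match in these windows overlapped a CCAAT match, although the letters TTGGCGC and the reversed box share bases. Among genes with a promoter, E2F-like letters were in 4 of 11 that fell (Bard1, Rad51c, Chek2 and Topbp1), in 1 of 2 that rose (Fancb) and in 4 of 14 not called (Brca2, Blm, Fancg and Fancm). CCAAT was in 5 of the 11 that fell, in both that rose and in 8 of the 14 not called. A match is a description of the letters in this window only.

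Of the 6 genes of end resection 2 rose and 4 did not pass, where 36.7% of all tested genes rose and 22.5% fell. Nbn (ENSMUSG00000028224, chromosome 4, 15957925 to 15992589, plus strand), the signalling subunit of the MRE11 complex, had 8.02, 8.14 and 8.11 FPKM in Rbbp4KO libraries, against 4.15, 4.76 and 4.44 FPKM in Rbbp4F/F libraries. The knockout values lay close together and all above the controls, 1.82-fold in the mean. The log2 difference of Nbn was 0.74 (SE 0.11, limma adjusted p = 0.00128), and its call held in all 14 alternatives. The other subunits did not pass: the nuclease gene Mre11a averaged 25.9 ± 2.65 FPKM in Rbbp4KO and 24.9 ± 2.32 FPKM in Rbbp4F/F libraries, and Rad50, the subunit that tethers DNA ends, 10.2 ± 1.46 in Rbbp4KO and 12.2 ± 0.903 FPKM in Rbbp4F/F libraries. Rad50 passed as lower with median-ratio (limma adjusted p = 0.0271) and upper-quartile scaling (0.0409), in a range of 0.0271 to 0.59 over the alternatives.

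Rbbp8, whose product CtIP activates the MRE11 nuclease, had 3.97, 5.78 and 7.77 FPKM in Rbbp4KO libraries and 2.75, 3.54 and 3.46 FPKM in Rbbp4F/F libraries. The groups did not overlap, but the lowest knockout library came near the highest control. Its log2 difference was 0.65 (SE 0.22, limma adjusted p = 0.038). That call was lost in 8 of 13 alternatives, among them both scalings that lower the knockout libraries and leaving out Rbbp4KO replicate 2 or 3 or any Rbbp4F/F library (0.073 to 0.12), with a range of 0.0057 to 0.12 over all alternatives. The long-range resection genes Exo1, a nuclease, and Blm, a helicase, did not pass, with log2 differences of 0.11 (95% interval −0.09 to 0.32) and 0.17 (−0.15 to 0.49).

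Of the 5 genes of the BRCA complexes 2 fell, where 22.5% of all tested genes did. Both encode subunits of the BRCA1 ubiquitin ligase. Bard1 had 6.12, 6.02 and 6.28 FPKM in Rbbp4KO libraries, against 12.6, 12.7 and 13.0 FPKM in Rbbp4F/F libraries. Both sets were tight and far apart, a log2 difference of −0.95 (SE 0.10, limma adjusted p = 2.84e-04). Brca1 had 16.2, 18.1 and 20.6 FPKM in Rbbp4KO libraries and 27.2, 26.6 and 29.5 FPKM in Rbbp4F/F libraries, and its lowest value was that of Rbbp4KO replicate 1. Its log2 difference was −0.58 (SE 0.11, limma adjusted p = 0.00351). Brca2, which acts on resected single-stranded DNA, varied within both groups, with 5.71, 9.90 and 10.9 FPKM in Rbbp4KO and 8.91, 10.7 and 15.9 FPKM in Rbbp4F/F libraries. The groups overlapped, and the 95% interval of its log2 difference, −1.04 to 0.27, reached lower than that of any other gene not called. Palb2, the bridge between BRCA1 and BRCA2, and the helicase gene Brip1 did not pass, with log2 differences of 0.01 (95% interval −0.42 to 0.44) and 0 (−0.38 to 0.37).

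The strand exchange cofactors held the largest rise and several of the largest falls. Rad51ap1, whose product stimulates strand pairing, had 27.2, 25.4 and 28.2 FPKM in Rbbp4KO libraries, against 9.57, 10.04 and 12.4 FPKM in Rbbp4F/F libraries. Its mean was 2.52 times higher in the knockout libraries, with a log2 difference of 1.27 (SE 0.12, limma adjusted p = 2.04e-04). Rad54l, which encodes the translocase RAD54, moved the other way, with 10.6, 11.5 and 10.01 FPKM in Rbbp4KO libraries and 23.8, 23.1 and 23.9 FPKM in Rbbp4F/F libraries. No value of either gene reached the other group, and the log2 difference of Rad54l was −1.08 (SE 0.09, limma adjusted p = 1.42e-04). Antisense exons of Lrrc41 cover 15.4% of its exonic length, and whether strand was used in counting is not given in the sources used here. The related Rad54b had 16.3 ± 1.95 FPKM in Rbbp4KO and 20.7 ± 2.73 FPKM in Rbbp4F/F libraries and did not pass (limma adjusted p = 0.0654), though it passed as lower with median-ratio (0.0136) and upper-quartile scaling (0.0155) and with the replicate block (0.0447), in a range of 0.0136 to 0.266. Exons of Fsbp on the same strand cover 35.8% of Rad54b, and reads there cannot be assigned to one gene.

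The paralog proteins form a complex of RAD51B, RAD51C, RAD51D and XRCC2 and a second one of RAD51C and XRCC3, and their transcripts did not move together. Rad51c had 4.42, 4.27 and 4.39 FPKM in Rbbp4KO libraries and 10.1, 8.15 and 9.01 FPKM in Rbbp4F/F libraries, a log2 difference of −0.91 (SE 0.12, limma adjusted p = 7.74e-04). Xrcc2 (ENSMUSG00000028933, chromosome 5, 25689812 to 25705825, minus strand) had 10.9, 10.7 and 11.0 FPKM in Rbbp4KO libraries and 7.15, 5.82 and 6.18 FPKM in Rbbp4F/F libraries, a log2 difference of 0.69 (SE 0.11, limma adjusted p = 0.00197). The knockout libraries were thus low for one partner and high for the other, with little spread in either. Xrcc3 had 5.84, 5.0 and 5.79 FPKM in Rbbp4KO libraries, against 13.7, 7.61 and 8.79 FPKM in Rbbp4F/F libraries. Its control spread came mainly from Rbbp4F/F replicate 1, and the call (log2 difference −0.72, SE 0.21, limma adjusted p = 0.0212) was lost without Rbbp4KO replicate 2 (0.0708) and without a filter on low values (0.0513), in a range of 0.0101 to 0.0708.

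Rad51d fell less, with 18.7 ± 2.81 FPKM in Rbbp4KO and 25.4 ± 2.47 FPKM in Rbbp4F/F libraries (log2 difference −0.43, SE 0.13, limma adjusted p = 0.0272). Its call was lost in 7 of 14 alternatives, including equal FPKM sums (0.0887) and leaving out Rbbp4KO replicate 2 or 3 or Rbbp4F/F replicate 1 or 3 (0.0735 to 0.0925), in a range of 0.00653 to 0.0925. Rad51b had 3.54, 2.40 and 2.20 FPKM in Rbbp4KO libraries and 3.46, 3.52 and 5.11 FPKM in Rbbp4F/F libraries. The value of Rbbp4KO replicate 1 lay among the controls, and Rad51b passed as lower without that library (limma adjusted p = 0.0291) and after scaling by median ratios (0.036) or by upper quartiles (0.0417), in a range of 0.0291 to 0.268.

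**Figure D3:**
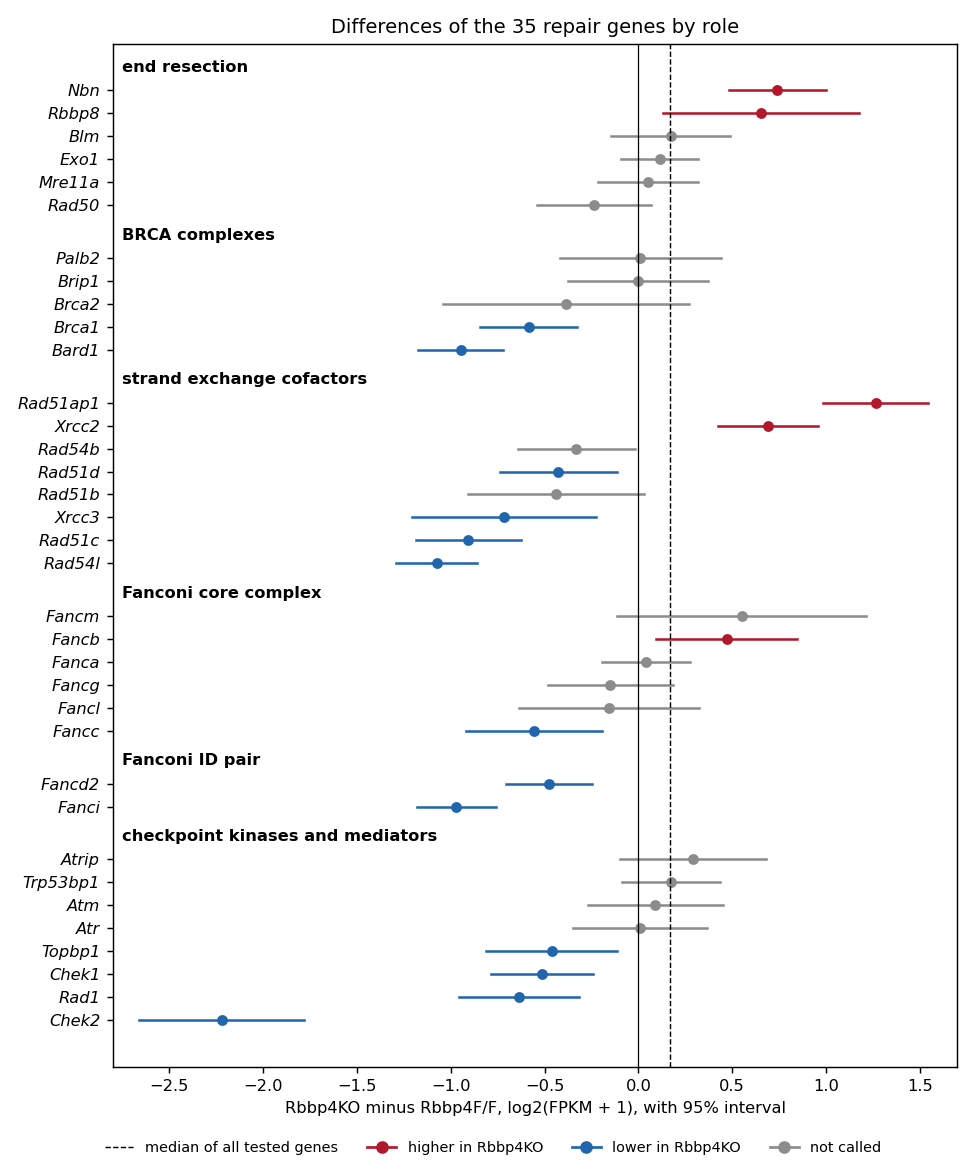
Log2 difference, Rbbp4KO minus Rbbp4F/F on log2(FPKM + 1), of each of the 35 repair genes with its 95% interval, grouped by role and coloured by call (limma adjusted p under 0.05). Genes of 1 role lie on both sides of 0 in every group but the pair Fanci and Fancd2. Called genes went both ways in the strand exchange and Fanconi core groups, and the 4 called in the checkpoint group are all lower.

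Within a library, the ratio of 2 genes does not depend on how libraries are scaled to each other. 13 ratios between partner genes were taken, chosen with the differences known, and with 3 libraries against 3 an exact permutation test could not go below 0.1, so they are given as values. Xrcc2 over Rad51c was 2.47, 2.51 and 2.50 in Rbbp4KO libraries and 0.711, 0.714 and 0.686 in Rbbp4F/F libraries. The order of the pair was thus turned over in every knockout library, with a 3.54-fold difference in the ratio. Nbn over Mre11a was 0.348, 0.309 and 0.287 in Rbbp4KO and 0.165, 0.176 and 0.198 in Rbbp4F/F libraries. Bard1 over Brca1 averaged 0.339 ± 0.0370 in Rbbp4KO and 0.460 ± 0.0186 in Rbbp4F/F libraries. Rad51ap1 over Rad54l averaged 2.53 ± 0.306 in Rbbp4KO and 0.452 ± 0.0596 in Rbbp4F/F libraries, the widest difference of the 13 at 5.61-fold. In 10 of the 13 ratios the groups did not overlap. No share over other gene pairs was computed to set beside this count, and some pairs set a gene that rose over one that fell. The 3 that overlapped were Rad50 over Mre11a, Xrcc3 over Rad51c and Atrip over Atr.

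**Figure D4:**
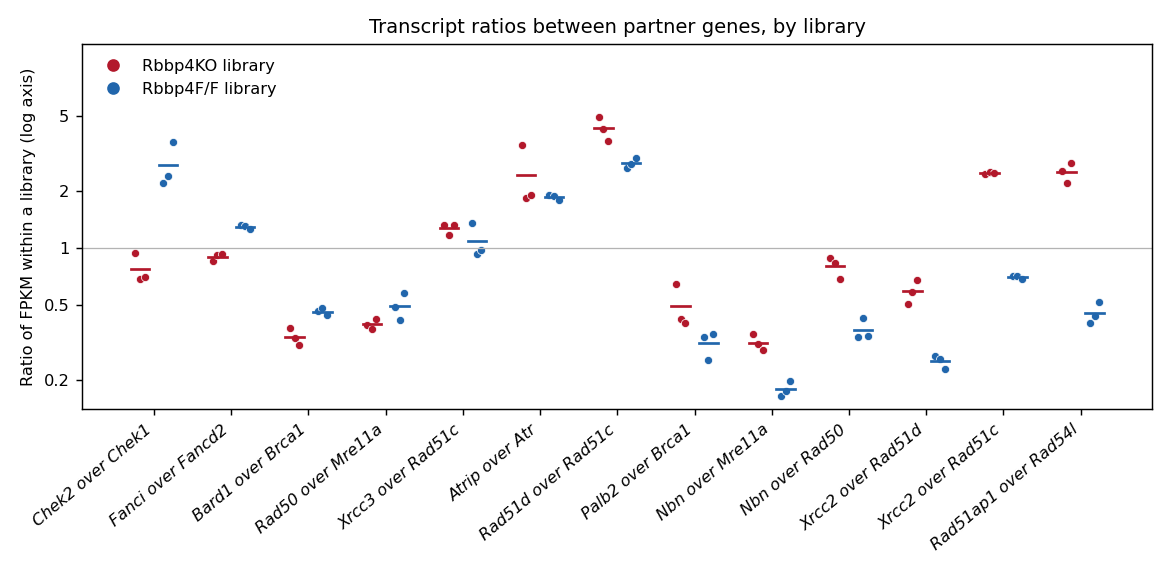
Ratio of FPKM between partner genes within each library (log axis), with Rbbp4KO libraries at the left (red) and Rbbp4F/F libraries at the right (blue) of each pair and bars at the means. Xrcc2 over Rad51c and Fanci over Fancd2 cross the line at 1 between the groups, as do Chek2 over Chek1 and Rad51ap1 over Rad54l.

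In the Fanconi pathway the central pair fell and the core complex was mixed. Fanci (ENSMUSG00000039187, chromosome 7, 79391929 to 79450264, plus strand) had 9.02, 9.34 and 9.36 FPKM in Rbbp4KO libraries, against 18.6, 18.8 and 19.9 FPKM in Rbbp4F/F libraries, a log2 difference of −0.97 (SE 0.09, limma adjusted p = 1.93e-04). Fancd2, its partner, had 10.6, 10.2 and 10.1 FPKM in Rbbp4KO libraries and 14.01, 14.4 and 15.8 FPKM in Rbbp4F/F libraries, a log2 difference of −0.48 (SE 0.10, limma adjusted p = 0.00489). All knockout libraries were below all controls for both, and Fanci over Fancd2 was 0.899 ± 0.0439 in Rbbp4KO and 1.30 ± 0.0314 in Rbbp4F/F libraries. Antisense exons of Polg cover 16.0% of Fanci and those of Fancd2os 3.2% of Fancd2.

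Of the 6 core complex genes 1 rose and 1 fell, where 36.7% and 22.5% of all tested genes did. Fancb had 2.39, 2.57 and 3.56 FPKM in Rbbp4KO libraries and 1.65, 1.64 and 1.97 FPKM in Rbbp4F/F libraries (log2 difference 0.47, SE 0.16, limma adjusted p = 0.0386). Fancc had 4.98, 4.12 and 3.24 FPKM in Rbbp4KO libraries and 6.53, 6.39 and 6.42 FPKM in Rbbp4F/F libraries (log2 difference −0.56, SE 0.15, limma adjusted p = 0.0172). Neither gene overlapped between groups, but both calls were lost in some alternatives. That of Fancb was lost in 8 of 13 alternatives (median-ratio 0.105, upper-quartile 0.0979, and 0.0639 to 0.118 without Rbbp4KO replicate 2 or 3 or any Rbbp4F/F library, in a range of 0.0202 to 0.118). That of Fancc was lost without Rbbp4KO replicate 2 or any Rbbp4F/F library (0.0508 to 0.0589, in a range of 0.00448 to 0.0589), and antisense exons cover 18.6% of the gene.

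The other core genes did not pass. Fanca, the most abundant of them, averaged 24.0 ± 2.34 FPKM in Rbbp4KO and 23.2 ± 1.13 FPKM in Rbbp4F/F libraries. The ubiquitin ligase gene Fancl had 14.6, 8.0 and 9.25 FPKM in Rbbp4KO libraries and 11.6, 11.1 and 12.1 FPKM in Rbbp4F/F libraries, so that Rbbp4KO replicate 1 was above the controls and the other knockout libraries below. Without that library Fancl passed as lower (limma adjusted p = 0.0155, in a range of 0.0155 to 0.985), and so did Fancg (0.0369, in a range of 0.0369 to 0.962), which had 7.78 ± 1.42 FPKM in Rbbp4KO and 8.66 ± 0.371 FPKM in Rbbp4F/F libraries. Fancm, a translocase gene that anchors the complex to DNA, had 4.66, 8.73 and 4.76 FPKM in Rbbp4KO libraries and 3.20, 2.80 and 5.33 FPKM in Rbbp4F/F libraries, and 1 library in each group stood away from the rest.

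Of the 8 checkpoint genes 4 fell, where 22.5% of all tested genes did, and the kinase that relays ATM signals fell most. Chek2 (ENSMUSG00000029521, GRCm38 chromosome 5, 110839979 to 110874145, plus strand) had 8.24, 6.81 and 7.70 FPKM in Rbbp4KO libraries, against 30.7, 37.4 and 51.1 FPKM in Rbbp4F/F libraries. The controls spread widely, but the lowest of them was still well above the highest knockout library. The mean was 5.24 times lower in the knockout libraries, a log2 difference of −2.22 (SE 0.19, limma adjusted p = 1.35e-04) that ran from −2.40 to −2.03 over the alternatives. Chek1, the kinase downstream of ATR, had 8.76, 9.95 and 10.9 FPKM in Rbbp4KO libraries and 13.9, 15.5 and 13.99 FPKM in Rbbp4F/F libraries (log2 difference −0.51, SE 0.11, limma adjusted p = 0.0075). Per length, the level of Chek2 was thus below that of Chek1 in every Rbbp4KO library and above it in every Rbbp4F/F library, at ratios of 0.777 ± 0.142 in Rbbp4KO and 2.75 ± 0.786 in Rbbp4F/F libraries.

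Rad1, a subunit of the clamp that is loaded at damage sites, had 24.5, 22.2 and 17.1 FPKM in Rbbp4KO libraries and 34.3, 33.2 and 32.2 FPKM in Rbbp4F/F libraries (log2 difference −0.63, SE 0.13, limma adjusted p = 0.0061). Topbp1, the activator of ATR, had 19.8, 26.2 and 28.9 FPKM in Rbbp4KO libraries and 32.8, 32.7 and 37.7 FPKM in Rbbp4F/F libraries. The lowest value of Topbp1 was that of Rbbp4KO replicate 1, and its call (log2 difference −0.46, SE 0.15, limma adjusted p = 0.0303) was lost in 7 of 14 alternatives, including equal FPKM sums (0.137) and leaving out Rbbp4KO replicate 2 or any Rbbp4F/F library (0.0576 to 0.101), in a range of 0.00761 to 0.137. The apical kinase genes did not pass. Atm averaged 3.18 ± 0.525 FPKM in Rbbp4KO and 2.91 ± 0.348 FPKM in Rbbp4F/F libraries, and Atr 3.97 ± 0.662 in Rbbp4KO and 3.93 ± 0.456 FPKM in Rbbp4F/F libraries, with intervals of the log2 difference of −0.27 to 0.45 and −0.35 to 0.36. Atrip, the partner of ATR, had 11.4, 7.45 and 8.82 FPKM in Rbbp4KO libraries and 6.98, 6.89 and 7.96 FPKM in Rbbp4F/F libraries, and 16.0% of its exonic length is shared with Trex1 on the same strand. The 53BP1 gene Trp53bp1, whose product restrains resection, averaged 21.3 ± 2.04 FPKM in Rbbp4KO and 18.8 ± 1.73 FPKM in Rbbp4F/F libraries. Atrip (limma adjusted p = 0.0432) and Trp53bp1 (0.0309) passed as higher with equal FPKM sums, as did Exo1 (0.0438), and Trp53bp1 passed also with totals without the 20 most abundant genes (0.0465). Over the alternatives their values ran from 0.0432 to 0.55, 0.0309 to 0.938 and 0.0438 to 0.695.

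The knockout libraries did not order the repair genes in one way. Rbbp4KO replicate 1, which had the highest Rbbp4 value of the knockout libraries, was closest to the control mean for 7 of the 13 genes that fell and 3 of the 5 that rose. Rbbp4KO replicate 3 was closest for 5 that fell. No share over all called genes was computed to set beside these counts. Over all tested genes, Rbbp4KO replicate 1 scored 41.8 on principal component 1 and replicates 2 and 3 scored 54.5 and 57.4, with Rbbp4F/F libraries at −52.1 to −50.2. Without Rbbp4KO replicate 1, 16 repair genes were lower and 5 higher, where 25.6% and 39.9% of all tested genes were (65.4% together).

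Other genes of the same pathways moved both ways, in shares near those of all tested genes, of which 36.7% rose and 22.5% fell. With median-ratio scaling 28.4% of all tested genes rose and 29.5% fell, and with equal FPKM sums 44.7% and 17.5%. With 1 library left out, 29.9% to 39.9% rose and 17.2% to 25.6% fell. Each gene named from these lists had a limma adjusted p of at most 7.61e-04. Of 21 further recombination genes 7 rose and 5 fell, with a median log2 difference of 0.10. With median-ratio scaling 4 rose and 6 fell, with equal FPKM sums 9 rose and 2 fell, and without Rbbp4F/F replicate 3, 4 rose and 4 fell. Without Rbbp4KO replicate 2 or Rbbp4F/F replicate 2, 5 rose and 3 fell. The single-strand binding subunit gene Rpa3 had 37.7 ± 0.599 FPKM in Rbbp4KO and 61.2 ± 4.63 FPKM in Rbbp4F/F libraries. The resolvase gene Gen1 rose to 7.77 ± 2.04 FPKM in Rbbp4KO, against 2.01 ± 0.401 FPKM in Rbbp4F/F libraries. Polq, counted in this list although it encodes an end-joining polymerase, rose to 9.14 ± 1.7 FPKM in Rbbp4KO, against 2.73 ± 0.645 FPKM in Rbbp4F/F libraries. Of 18 further Fanconi genes 5 rose and 4 fell, with median-ratio scaling 4 rose and 6 fell, and 6 rose and 4 fell with equal FPKM sums. Without Rbbp4KO replicate 1, 6 rose and 7 fell. Uhrf1, which encodes a sensor of crosslinks, fell to 83.3 ± 9.87 FPKM in Rbbp4KO, against 181.0 ± 4.22 FPKM in Rbbp4F/F libraries, and the core complex partner Faap100 to 8.60 ± 0.951 in Rbbp4KO, against 18.7 ± 0.643 FPKM in Rbbp4F/F libraries. The translesion polymerase gene Rev1 rose to 26.7 ± 2.12 FPKM in Rbbp4KO, against 11.5 ± 0.612 FPKM in Rbbp4F/F libraries. Of 18 further checkpoint genes 5 rose and 4 fell, with median-ratio scaling 2 rose and 8 fell, and 5 rose and 3 fell with equal FPKM sums. Without Rbbp4KO replicate 2 or any 1 Rbbp4F/F library 2 rose and 3 fell, and without Rbbp4KO replicate 3, 3 rose and 4 fell. The mediator gene Mdc1 fell to 18.7 ± 1.98 FPKM in Rbbp4KO, against 50.6 ± 4.23 FPKM in Rbbp4F/F libraries, and the histone variant gene H2afx to 175.6 ± 11.1 in Rbbp4KO, against 293.5 ± 28.9 FPKM in Rbbp4F/F libraries. Uimc1, which encodes the ubiquitin reader RAP80, rose to 17.6 ± 0.321 FPKM in Rbbp4KO, against 8.50 ± 0.818 FPKM in Rbbp4F/F libraries.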

How the data were processed

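The members and the gene lists were chosen with earlier results of these data known. Per the labels' protocols, RNA was taken with Trizol and made into TruSeq libraries, 3 of Rbbp4-/- and 3 of Rbbp4F/F embryonic stem cells, grouped by their titles. Tools listed, per the submitters' processing notes and without roles, were RSEM, HISAT2 2.1.0, FastQC and DESeq 1.26.0, with the build GRCm38.p6. Annotation release and strand setting: not given in the sources used here. The values the authors deposited were taken as FPKM, because they are not whole, sum to 697933 to 800146 per library and lie on even steps at low values once multiplied by transcript length. Because FPKM is relative to a library's total, lower levels of abundant transcripts lift all others. 2 rows per file without a gene identifier were left out. Of 51912 Ensembl identifiers, 51719 matched GENCODE M21, which gave symbols and coordinates.

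The filter kept genes reaching 1 FPKM in 3 or more libraries. limma 3.58.1 (R 4.3.3) was fitted to log2(FPKM + 1) with a group term and a trended prior variance, two-sided, with Benjamini-Hochberg adjustment over all tested genes at 0.05. Fold changes on this scale understate those of low genes. The p-values measure the spread between these libraries, which may be technical. The test was tried on simulated data. All 35 members are named. From the other repair and cell cycle lists the text names the 3 called genes with the smallest p, or all where 5 or fewer were called. Some genes that this rule names are not reported here. The alternatives were 4 other scalings, a pseudocount of 0.1, no filter or one of 5 FPKM, a replicate block and each library left out. Promoters came from the RefSeq table.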

Additional observations from a re-analysis of the deposited data

How the results depend on the processing

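Of the 13 repair genes that fell, 9 kept the call in every alternative in which they were tested, and of the 5 that rose, 3 did (Rad51ap1, Nbn and Xrcc2). The share of all called genes that kept their call was not computed to set beside these counts. The number that rose was 3 with median-ratio scaling, upper-quartile scaling, no filter and a filter of 5 FPKM, and 8 with equal FPKM sums, where 28.4%, 29.5%, 19.9%, 38.3% and 44.7% of all tested genes rose in that order of settings. It was 5 without Rbbp4KO replicate 1, where 39.9% of all tested genes rose, and 3 without any other library, where 29.9% to 33.3% did. The number that fell ran from 9 to 16 over all alternatives. The share of all tested genes that fell ran from 10.7% with no filter to 29.5% with median-ratio scaling, and it was 17.9% where 9 repair genes fell, without Rbbp4KO replicate 2. The median log2 difference over the repair genes was −0.33 with median-ratio scaling, −0.31 with upper-quartile scaling, −0.013 with equal FPKM sums, −0.049 with totals without the 20 most abundant genes and −0.36 with a filter of 5 FPKM, which left 28 of them. It was −0.18 to −0.09 with 1 library left out. With the replicate number as a block, 5 repair genes rose and 14 fell, where 35.9% and 21.4% of all tested genes did, and 5 of the further checkpoint genes were called in place of 9. That count was 5 to 12 with 1 library left out, and 5 without Rbbp4KO replicate 2 or any Rbbp4F/F library. Libraries of the same number did not deviate together (correlations −0.001, −0.009 and 0.049), so the numbers were not taken to pair the libraries. Fancb held the lowest single value, 1.64 FPKM, and a part of depth in its calls was not tested. The cause of these shifts was not tested.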

Other observations

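Other repair pathways were compared in the same fit, and each gene named here was called, with limma adjusted p of at most 0.0149. Of all tested genes 36.7% rose and 22.5% fell. These shares were 28.4% and 29.5% with median-ratio scaling and 44.7% and 17.5% with equal FPKM sums. With totals without the 20 most abundant genes they were 42.5% and 18.6%. Of 10 genes of non-homologous end joining 2 fell and 2 rose, with 1 rising after median-ratio scaling and 3 with equal FPKM sums. The genes of both Ku subunits fell, Xrcc5 to 31.1 ± 1.31 FPKM in Rbbp4KO, against 59.0 ± 2.51 FPKM in Rbbp4F/F libraries, and Xrcc6 to 27.8 ± 0.390 in Rbbp4KO, against 49.2 ± 2.52 FPKM in Rbbp4F/F libraries. The ligase gene Lig4 rose to 2.52 ± 0.673 FPKM in Rbbp4KO, against 1.12 ± 0.0451 FPKM in Rbbp4F/F libraries, and Aplf to 7.42 ± 1.02 in Rbbp4KO, against 4.94 ± 0.170 FPKM in Rbbp4F/F libraries. Of 9 mismatch repair genes 4 fell and 1 rose, and 2 rose with equal FPKM sums. The mismatch sensor gene Msh6 fell to 93.8 ± 2.24 FPKM in Rbbp4KO, against 214.7 ± 3.04 FPKM in Rbbp4F/F libraries. The sliding clamp gene Pcna and the ligase gene Lig1 fell as well (log2 differences −0.58 and −0.68).

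Of 21 base excision repair genes 7 fell and 2 rose, but 6 fell and 6 rose with equal FPKM sums, and 6 fell and 4 rose with totals without the 20 most abundant genes. The strand-break sensor gene Parp1 fell to 99.6 ± 11.8 FPKM in Rbbp4KO, against 317.1 ± 8.78 FPKM in Rbbp4F/F libraries. The glycosylase genes Ung and Nthl1 fell to 30.0 ± 4.31 FPKM in Rbbp4KO, against 76.1 ± 5.71 FPKM in Rbbp4F/F libraries, and to 10.3 ± 0.992 in Rbbp4KO, against 24.4 ± 2.66 FPKM in Rbbp4F/F libraries. Of 16 nucleotide excision repair genes tested 5 rose and 3 fell, but 8 rose and 1 fell with equal FPKM sums. Only 1 fell without Rbbp4KO replicate 2, Rbbp4KO replicate 3 or any 1 Rbbp4F/F library, where 17.2% to 19.3% of all tested genes did. Gtf2h1 and Ercc5, which encode a subunit of the repair helicase complex and an incision nuclease, rose to 76.9 ± 3.22 FPKM in Rbbp4KO, against 21.6 ± 0.455 FPKM in Rbbp4F/F libraries, and to 16.7 ± 2.21 in Rbbp4KO, against 5.92 ± 1.29 FPKM in Rbbp4F/F libraries. Cetn2 fell to 6.20 ± 0.621 FPKM in Rbbp4KO, against 15.5 ± 1.19 FPKM in Rbbp4F/F libraries. In the S phase list the examples by the same rule were Cdc6, Rrm2 and Gins2 (log2 differences −1.03, −0.96 and −1.04), and in the mitotic list Top2a, Ccnb2 and Ccnb1 (−1.27, −1.07 and −0.93).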
